A study of Macaca mulatta with 13 samples.

Results

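The guanylate-binding protein and interferon gamma genes described here are GBP1, GBP2, GBP3, GBP4, GBP5, IRF1, IFNGR1, IFNGR2 and CXCL10. A probe set, the group of short oligonucleotides that measures 1 transcript on the array, was taken when the platform annotation paired it with exactly 1 of these symbols. This gave 11 of 52707 probe sets, for 4 of the 9 genes: 6 for GBP1, 3 for GBP2, 1 for IRF1 and 1 for CXCL10. For the other 5 genes, GBP3, GBP4, GBP5, IFNGR1 and IFNGR2, the annotation used held no probe set with that symbol alone, and they were not analysed here. A further 3 probe sets carried both GBP1 and GBP3 among their symbols and were left out, since their signal cannot be given to 1 gene.

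Interferon gamma is a cytokine that NK cells and T cells release. It binds a receptor made of the IFNGR1 and IFNGR2 chains, which activates the JAK1 and JAK2 kinases. The signal raises IRF1, a transcription factor, and genes such as the guanylate-binding proteins, large GTPases that attack intracellular pathogens, and CXCL10, a chemokine that attracts activated T cells. In blood, monocytes respond strongly to interferons, and GBP1, IRF1 and CXCL10 also respond to type I interferons, so none of them marks interferon gamma alone.

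The study measured total RNA of peripheral blood mononuclear cells (lymphocytes, monocytes and related blood cells) from 13 rhesus macaques, Macaca mulatta, 4 months of age, each on 1 Affymetrix rhesus array (1 animal per sample is taken from the separate sample titles). It asks whether expression differs by early rearing: 5 animals were reared by their mothers, 4 with peers and 4 under surrogate-peer rearing. The labels name no treatment, genotype or sex, and describe the rearing no further. Replicate numbers only name the arrays. The peer and surrogate-peer animals together are called non-maternal. Values are log2 expression per probe set, so a difference of 1 is a doubling of signal, and levels of different probe sets are not compared.

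Markers of the expected cells lay above the low-signal filter, a mean over the arrays of 6.04: all 12 measured monocyte markers, 9 of NK and cytotoxic cells, 8 of T cells and 9 of B cells. So did 7 of 9 neutrophil, 7 of 7 platelet and 2 of 4 erythroid markers. The log2 ratio of 3' to 5' signal of the actin and GAPDH controls, a sign of RNA quality, was 1.56 to 2.22 in maternal, 1.38 to 1.74 in peer and 1.31 to 1.44 in surrogate-peer arrays. The SD of all values of an array was 2.09 to 2.11 in maternal and 2.12 to 2.15 in the other arrays. These measures move with the groups, and their part in the differences given here was not tested. In bulk RNA, fewer cells of a type and less RNA per cell cannot be told apart.

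GBP1, a large GTPase that interferons induce strongly, was lower in the non-maternal animals. At probe set MmugDNA.41315.1.S1_at, the one with the highest mean, the maternal animals had log2 values of 10.70, 12.54, 11.91, 12.25 and 13.38. The peer animals had 10.46, 10.77, 11.80 and 10.43, and the surrogate-peer animals 10.94, 10.80, 10.88 and 10.88. So 4 of the 5 maternal values lay above every other value, while maternal array 1 lay below all 4 surrogate-peer values, and the groups overlapped.

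The maternal mean was 12.16 ± 0.98 (SD, n = 5). Peer animals averaged 10.87 ± 0.64 (SD, n = 4), and surrogate-peer animals 10.87 ± 0.06 (SD, n = 4). The log2 fold change of non-maternal against maternal animals was -1.29 ± 0.36 (SE), a 2.44-fold lower signal, with an adjusted p of 0.0490 by limma, a linear model fitted to all probe sets at once. The adjustment was that of Benjamini and Hochberg over the 26352 probe sets above the filter, with a threshold of 0.05. This was the only call among the 8 tested member probe sets, beside 2107 calls, or 8.0%, among all tested probe sets and 1.35% called lower. At an unadjusted p under 0.05 limma placed 4 of the 8, the tested GBP1 probe sets, all lower. Of all tested probe sets 29.0% were placed at that p in either direction. Among the 8 tested members 0 had non-overlapping groups in any of the 4 comparisons. Of all tested probe sets 2.87% had them for non-maternal against maternal, 9.48% for peer against maternal, 5.44% for surrogate-peer against maternal and 1.74% for surrogate-peer against peer.

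**Figure D1:**
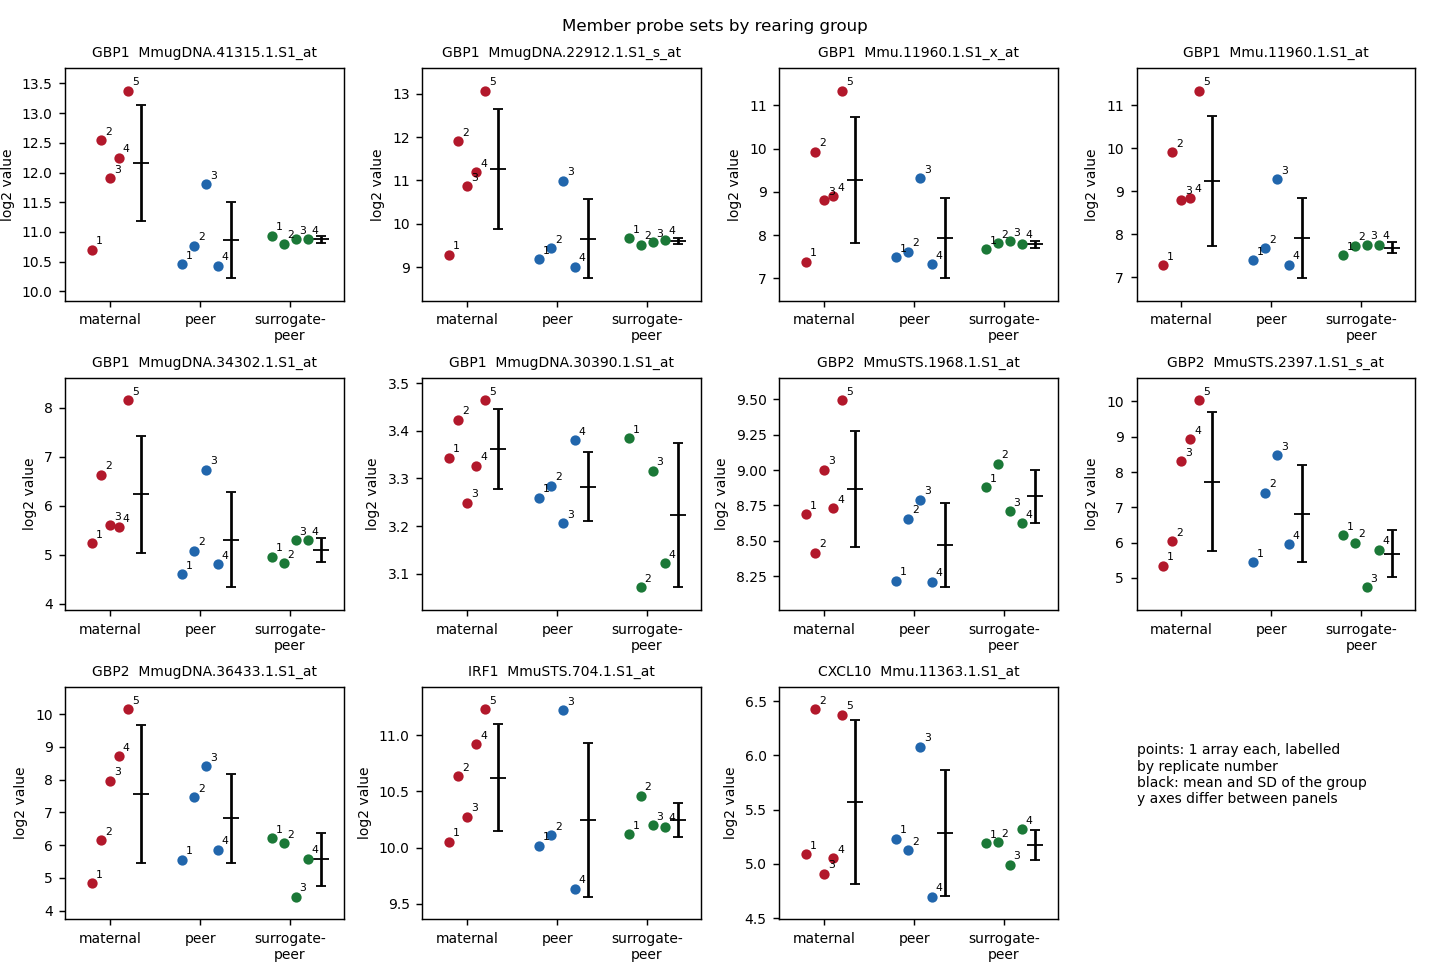
Log2 values of the 11 member probe sets, 1 panel each, by rearing group (5 maternal, 4 peer and 4 surrogate-peer arrays). Points are single arrays with their replicate number and black marks are the group mean and SD. Maternal array 5 is the highest array in 10 of the 11 panels.

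The call for GBP1 sat at the threshold. Without maternal array 1, the low maternal animal, the log2 fold change was -1.65 with an adjusted p of 0.00391 by limma. Without maternal array 5, the highest, it was -0.98 (adjusted p = 0.110 by limma). With maternal arrays 2 and 5 both left out it was -0.75 (adjusted p = 0.213 by limma). These are the highest arrays at this probe set, so a smaller difference without them follows from their choice. That setting called 37 probe sets, or 0.140%, among all 26353 tested. Leaving out peer array 3 kept the call (adjusted p = 0.0453), and each of the 11 other single arrays ended it, with adjusted p between 0.0685 and 0.118 by limma. Testing all 52707 probe sets without the filter gave an adjusted p of 0.0690, array weights 0.0533, a variance trend together with robust estimation 0.0508 and quantile normalization 0.0514, while the sign stayed negative in all of these settings.

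**Figure D2:**
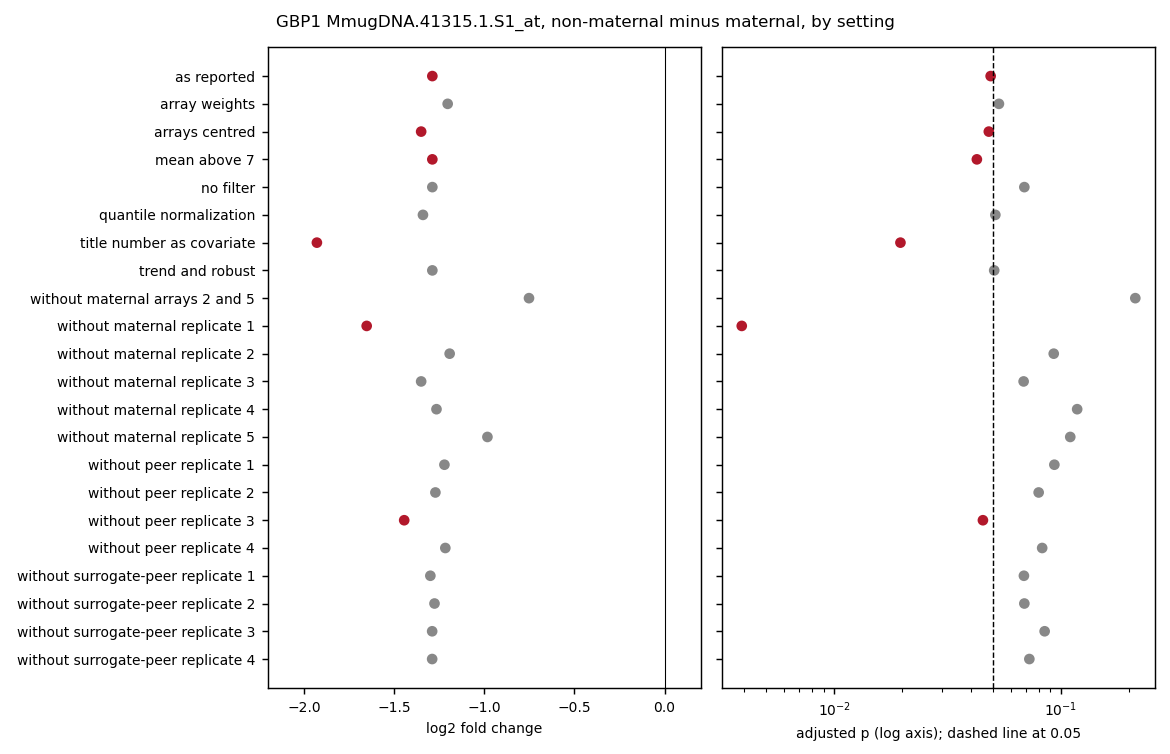
Log2 fold change (left) and adjusted p (right, log axis) of GBP1 probe set MmugDNA.41315.1.S1_at, non-maternal minus maternal, under each setting. Red points have an adjusted p under 0.05 and grey points do not. All fold changes are negative, from -1.93 to -0.75, and adjusted p runs from 0.00391 to 0.213.

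Against the maternal animals the 2 other groups gave nearly equal values at this probe set: -1.29 ± 0.43 (SE) for peer and -1.28 ± 0.43 (SE) for surrogate-peer animals. Neither passed limma's threshold (adjusted p = 0.103 and 0.139). These comparisons share the 5 maternal arrays. Surrogate-peer minus peer was 0.01 ± 0.45 (SE), with a 95% interval from -0.97 to 0.99. That interval spans nearly 1 log2 unit each way, so a like level in both groups is not shown. The peer mean rests on 1 high array: peer array 3 stood at 11.80 and the 3 others at 10.43 to 10.77.

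The other tested GBP1 probe sets were also highest on maternal arrays 5 and 2. At MmugDNA.22912.1.S1_s_at maternal values were 9.29, 11.90, 10.87, 11.20 and 13.08, peer values 9.18, 9.43, 10.99 and 9.01, and surrogate-peer values 9.67, 9.52, 9.57 and 9.63. Maternal array 1 again lay below the surrogate-peer values, and peer array 3 lay above maternal array 3 here. The log2 fold change was -1.64 ± 0.52 (SE) and did not pass (limma, adjusted p = 0.0653), nor did -1.42 ± 0.54 (SE, adjusted p = 0.110) and -1.44 ± 0.55 (SE, adjusted p = 0.112) at a pair of probe sets of like name, which end in S1_x_at and S1_at. At the S1_x_at probe set maternal values were 7.39, 9.93, 8.81, 8.90 and 11.34, peer values 7.48, 7.61, 9.31 and 7.32, and surrogate-peer values 7.68, 7.81, 7.86 and 7.80.

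MmugDNA.34302.1.S1_at lay below the filter with a mean of 5.599 and was not tested. It too was highest in maternal array 5 (8.16), peer array 3 (6.74) and maternal array 2 (6.64), with the rest between 4.60 and 5.599. MmugDNA.30390.1.S1_at stayed between 3.07 and 3.465 in all 13 animals and showed no such pattern. Across the 13 arrays the other 4 probe sets followed MmugDNA.41315.1.S1_at with Pearson's r of 0.903 to 0.996, and MmugDNA.30390.1.S1_at with 0.434. These are descriptions over 1 set of arrays, and the probe sets may share transcripts. Probe sets ending in _s_at or _x_at can detect closely related transcripts, so signal from near-identical GBP genes cannot be set apart from GBP1.

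The spread of GBP1 differed between the groups more than the means of the non-maternal groups did. The SD was 0.98 to 1.51 in maternal animals, 0.64 to 0.93 in peer animals and 0.06 to 0.12 in surrogate-peer animals at the 4 tested probe sets. From the lowest to the highest of the 13 arrays these probe sets spanned 2.95 to 4.07 log2 units, more than 99.3% to 99.8% of all 52707 probe sets did. limma uses 1 estimate of spread for all groups, and the SE values above are therefore common to groups whose spreads differ.

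GBP2, a second family member that interferons induce, split by probe set. At MmugDNA.36433.1.S1_at maternal values were 4.84, 6.14, 7.97, 8.73 and 10.15, peer values 5.55, 7.47, 8.40 and 5.86, and surrogate-peer values 6.21, 6.06, 4.42 and 5.59. Maternal arrays 3, 4 and 5 and peer arrays 2 and 3 were high, at 7.47 or above, and the 8 other arrays were at 6.21 or below. The means were 7.57 ± 2.10 (SD, n = 5), 6.82 ± 1.35 (SD, n = 4) and 5.57 ± 0.81 (SD, n = 4), and neighbouring groups in this order overlapped.

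MmuSTS.2397.1.S1_s_at ordered the 13 arrays identically (Spearman's rho of 1 as a description). Its log2 fold change was -1.48 ± 0.77 (SE, limma, adjusted p = 0.217) and that of MmugDNA.36433.1.S1_at -1.37 ± 0.80 (SE, limma, adjusted p = 0.269). Without maternal array 5 these were -0.90 and -0.73, and without maternal array 1 they were -2.07 and -2.05. The range over the arrays was 5.31 and 5.72 log2 units, larger than in 99.9% and 99.96% of all probe sets. The surrogate-peer differences from maternal animals were -2.05 ± 0.90 and -2.00 ± 0.95 (SE), the largest of any member, and did not pass (limma, adjusted p = 0.229 and 0.257).

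The third GBP2 probe set, MmuSTS.1968.1.S1_at, moved little: 8.69, 8.41, 9.003, 8.73 and 9.496 in maternal, 8.22, 8.66, 8.79 and 8.21 in peer and 8.88, 9.05, 8.71 and 8.63 in surrogate-peer animals. Maternal array 5 was again highest, while maternal array 2, high for GBP1, was the lowest of the maternal arrays. The difference was -0.22 ± 0.17 (SE, limma, adjusted p = 0.388), or -0.07 without maternal array 5 and -0.34 without maternal array 2. The 3 probe sets annotated to GBP2 therefore do not give 1 answer on its level. Maternal array 2 lay above the maternal mean for GBP1 at MmugDNA.41315.1.S1_at, at 12.54 against 12.16. At the 3 GBP2 probe sets it lay below the maternal mean, at 8.41 against 8.87, 6.03 against 7.73 and 6.14 against 7.57.

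IRF1, the transcription factor of the group, had 1 probe set, MmuSTS.704.1.S1_at. Maternal values were 10.05, 10.64, 10.28, 10.92 and 11.23, peer values 10.02, 10.11, 11.22 and 9.63, and surrogate-peer values 10.12, 10.46, 10.20 and 10.19. Maternal array 5 and peer array 3 were the highest, and the groups overlapped. The group means, in the same order, were 10.62 ± 0.48 (SD, n = 5), 10.25 ± 0.68 (SD, n = 4) and 10.24 ± 0.15 (SD, n = 4). The non-maternal difference of -0.38 ± 0.25 (SE) did not pass (limma, adjusted p = 0.324), and its 95% interval ran from -0.93 to 0.16. It was -0.23 without maternal array 5 and -0.54 without peer array 3.

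CXCL10, the chemokine of the group, lay below the filter (mean 5.36) and was not tested. Its maternal values were 5.09, 6.42, 4.91, 5.05 and 6.37, its peer values 5.23, 5.12, 6.08 and 4.70, and its surrogate-peer values 5.19, 5.20, 4.99 and 5.32. Maternal arrays 2 and 5 and peer array 3 stood at 6.08 or above, and the other 10 arrays at 5.32 or below. With all probe sets in the fit, the difference was -0.34 with an adjusted p of 0.514 by limma.

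Over the 8 tested member probe sets all 8 log2 fold changes of non-maternal against maternal animals were negative, with a median of -1.39, where 49.0% of all tested probe sets were negative and their median was 0.01. The 8 stand for 3 genes and come from the same arrays, with 4 for GBP1, 3 for GBP2 and 1 for IRF1, so the median is not one of separate genes. At the probe set with the highest mean, GBP1 gave -1.29, GBP2 -0.22 and IRF1 -0.38. The 3 other member probe sets lay below the filter. In peer against maternal animals 8 of 8 were negative (median -1.10), and limma called 0, with 2 at an unadjusted p under 0.05, beside 0.353% called, 24.9% at that p and 49.4% negative among all. In surrogate-peer against maternal animals 8 of 8 were negative (median -1.52), with 0 called by limma and 5 at an unadjusted p under 0.05, beside 0% called, 20.3% at that p and 47.8% negative among all. Surrogate-peer against peer gave 6 of 8 negative (median -0.10), with 0 called by limma and 0 at an unadjusted p under 0.05, beside 0% called, 1.83% at that p and 49.8% negative among all. The moderated F test of limma over the 3 groups called 0 members, with adjusted p from 0.145 to 0.609, beside 0.0873% of all tested probe sets.

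**Figure D3:**
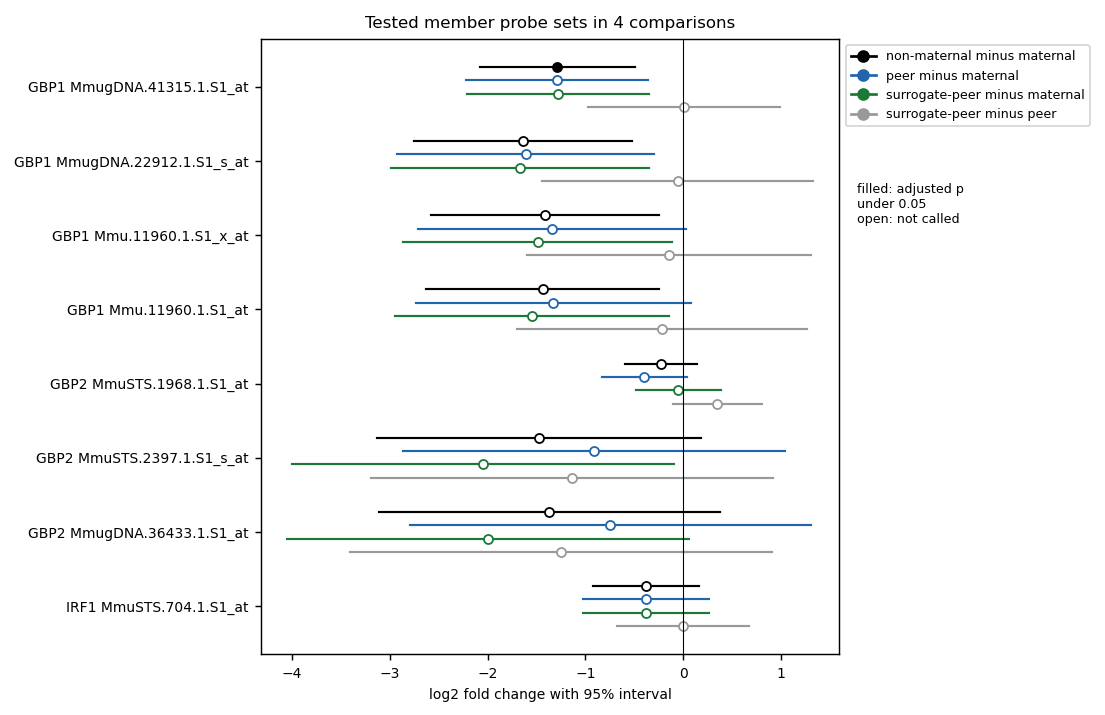
Log2 fold changes with 95% intervals for the 8 tested member probe sets in 4 comparisons. The filled point is the 1 call, GBP1 at MmugDNA.41315.1.S1_at, and the intervals of surrogate-peer minus peer cross 0 at all 8 probe sets.

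Seen by animal, the same arrays were often among the highest. Maternal array 5 was the highest of 13 at 10 of the 11 probe sets, and among the highest 4 at all 11. Peer array 3 and maternal array 2 were each among the highest 4 at 8 probe sets. Maternal array 4 was among them at 7 and maternal array 3 at 5. Of the 11 probe sets 6 measure GBP1. Maternal array 1 was among the highest 4 at 0.

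**Figure D4:**
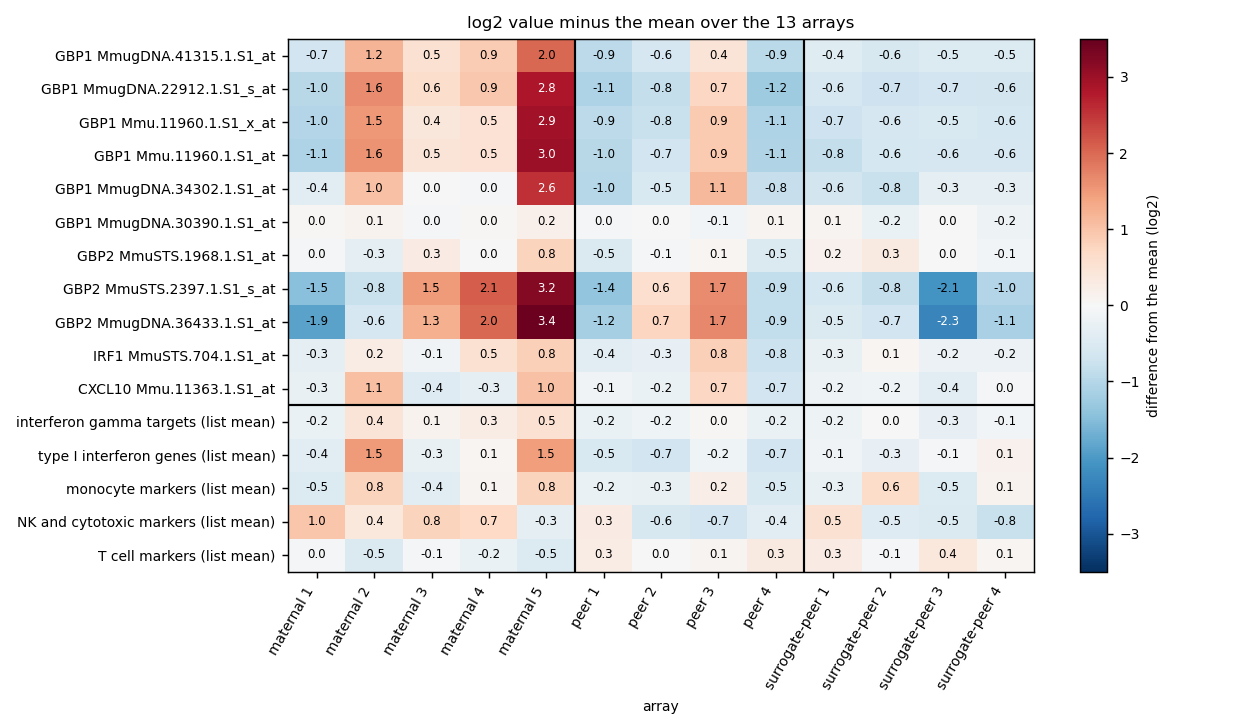
Difference of each log2 value from the mean over the 13 arrays, for the 11 member probe sets (above the horizontal line) and for the mean of 5 gene lists (below it). Columns are arrays by group. Maternal arrays 2 and 5 are highest for the type I interferon and monocyte lists, at 1.503 and 1.46 and at 0.78 each.

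Markers of several cell types moved with some of the same arrays. The monocyte level, a mean of 12 centred marker values, was 0.78 on both maternal arrays 2 and 5 and 0.24 on peer array 3, but also 0.64 on surrogate-peer array 2, where GBP1 stood at 10.80. It ran from -0.49 to 0.78 in maternal, -0.53 to 0.24 in peer and -0.48 to 0.64 in surrogate-peer animals, and limma called 1 of its 12 markers lower in non-maternal animals and 0 higher. NK and cytotoxic markers ran from -0.32 to 0.98 in maternal, -0.67 to 0.28 in peer and -0.77 to 0.54 in surrogate-peer animals. Of these markers 4 of 9 were called lower. Their level was 0.98, 0.36, 0.79, 0.71 and -0.32 on maternal arrays 1 to 5, so it was high with GBP1 on arrays 2, 3 and 4 and not on arrays 1 and 5. The T cell level was -0.51 to -0.03 in maternal, -0.01 to 0.33 in peer and -0.06 to 0.36 in surrogate-peer animals, with 1 of 8 called higher. Neutrophil markers reached 1.02 on maternal array 5, with 1 of 7 called lower in non-maternal animals. B cell markers had 9 of 9 negative in non-maternal animals (median -0.70), with 1 called lower. In surrogate-peer against maternal animals all 9 had an unadjusted limma p under 0.05 (median -1.19, 0 called). In peer against maternal animals 8 of 9 were negative (median -0.21), with 1 at that p and 0 called. In surrogate-peer against peer animals all 9 were negative and at that p (median -0.90, 0 called). Of the tested basophil markers 1 of 2 was called higher, and of the tested dendritic cell markers 1 of 6, FCER1A. The dendritic cell level was -0.61 to 0.44 in maternal, 0.16 to 0.30 in peer and -0.22 to 0.29 in surrogate-peer animals. Platelet markers had 7 of 7 negative in non-maternal animals, with 0 called. Among all tested probe sets 1.35% were called lower and 6.64% higher in non-maternal against maternal animals, and 49.0% were negative. In surrogate-peer against maternal animals 20.3% were at an unadjusted limma p under 0.05 and 0% were called. In peer against maternal animals these shares were 24.9% and 0.353%. In surrogate-peer against peer animals they were 1.83% and 0%, with 49.8% negative. The part of these cell types in the member values was not tested. Across the 13 arrays GBP1 followed the monocyte level with r of 0.666, or 0.273 without maternal arrays 2 and 5, as a description. With the T cell level r was -0.825, or -0.598 without those arrays. For the NK and cytotoxic level these values were 0.146 and 0.293, and for the B cell level 0.306 and -0.0155. With the group means removed r was 0.717 for monocyte, -0.621 for T cell, -0.622 for NK and cytotoxic and -0.183 for B cell levels.

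The wider pathway was described from lists of its ligand, transducers, inhibitors and targets, and of type I interferon genes, each gene by the probe set with its highest mean. Of 94 listed genes 69 had a probe set and 58 were tested. In non-maternal against maternal animals 47 of 58 were negative with a median of -0.32. Among all tested probe sets 49.0% were negative and the median was 0.01. limma called 4 of the 58 lower and 1 higher, beside 6.64% higher and 1.35% lower among all tested probe sets. Dropping 1 array changed that count of 5 by over 1.5 times in several cases. It became 18 when maternal array 1 was dropped, 3 for maternal array 2, 0 for maternal array 4 and 0 for maternal array 5. For peer arrays 1, 2, 3 and 4 it became 0, 2, 3 and 3, for surrogate-peer array 3 it became 0 and for surrogate-peer array 4 it became 3. Dropping maternal arrays 2 and 5 together gave 0.

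On the side of the ligand 0 of 5 tested genes were called, with 1 at an unadjusted limma p under 0.05 (29.0% among all tested probe sets). IFNG, the interferon gamma gene itself, lay below the filter, at 4.51 to 4.85 in maternal, 4.79 to 4.97 in peer and 4.64 to 4.79 in surrogate-peer animals. These low values do not show its level in any array. TBX21, the transcription factor that directs interferon gamma production, gave -0.63 ± 0.22 (SE, limma, adjusted p = 0.0851). EOMES, a related factor, gave -0.43, and IL12RB2, a receptor chain for the inducing cytokine interleukin 12, gave -0.32, with adjusted p of 0.283 and 0.250.

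Among signal transducers 0 of 8 were called, with 3 at an unadjusted limma p under 0.05 (29.0% among all tested probe sets) and a median of 0.07. JAK2, a kinase bound to the receptor, gave 0.09 ± 0.24 (SE, limma, adjusted p = 0.816) and its 2 other probe sets -0.11 and 0.09. STAT2, a transcription factor of type I interferon signalling, gave -0.42 ± 0.16 (SE, adjusted p = 0.103). IRF2, which competes with IRF1 for its sites, gave -0.39 and the kinase gene CAMK2G 0.21, both not called. JAK1 had no probe set with that symbol alone and was not analysed here.

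Among inhibitors 1 of 5 rose, PTPN11, the phosphatase SHP-2 (0.53 ± 0.11, SE, limma, adjusted p = 0.0252), whose maternal values were 10.48, 9.99, 10.05, 9.85 and 9.71 against 10.41 to 10.74 in the 8 others. Only maternal array 1 lay within the non-maternal values. Of all tested probe sets 6.64% were called higher. Its other tested probe set gave 0.25 and did not pass (adjusted p = 0.0920). PIAS1, an inhibitor of interferon signalling, gave 0.29 (adjusted p = 0.0983), while another of its 6 probe sets rose by 0.35 (adjusted p = 0.0335). PTPN6, the phosphatase SHP-1, gave -0.23 (adjusted p = 0.142). SOCS1, the feedback inhibitor that interferon gamma induces, gave -0.08 ± 0.07 (SE, adjusted p = 0.435), with other probe sets from -0.26 to 0.22.

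Among targets 22 of 23 were negative with a median of -0.33, and 3 fell. Of all tested probe sets 49.0% were negative, 1.35% were called lower and 2.87% had non-overlapping groups. CD274, the checkpoint ligand PD-L1, fell most (-1.18 ± 0.25, SE, limma, adjusted p = 0.0239). Its values were 6.65, 7.82, 7.01, 7.66 and 8.496 in maternal, 6.11, 6.31, 6.63 and 6.30 in peer and 6.32, 6.44, 6.22 and 6.44 in surrogate-peer animals, without overlap, though the lowest maternal and the highest peer value nearly met. TAPBP, the chaperone tapasin of class I peptide loading, fell by 0.28 (adjusted p = 0.0427), its groups not overlapping either, and TAP2, a subunit of the peptide transporter, fell by 0.52 (adjusted p = 0.0489). Their other probe sets gave -0.18 and -0.09 for TAPBP and -0.12 and -0.07 for TAP2, and none of these was called. Without maternal arrays 2 and 5, which were also the highest for CD274, the list had 17 of 23 negative, a median of -0.23 and 0 called. CD274 then stood at -0.76 (limma, adjusted p = 0.0726).

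Type I interferon genes had 15 of 17 negative and a median of -0.93, where 49.0% of all tested probe sets were negative and 1.35% were called lower. Of the 17, 1 fell, ISG20, an antiviral exonuclease (-0.39 ± 0.09, SE, limma, adjusted p = 0.0274), without overlap between the groups. IRF7, positive at its probe set with the highest mean (0.04), fell at its other (-1.205, limma, adjusted p = 0.0415). IFIT2, counted as negative, gave -1.48 to 0.31 at its other probe sets, none called. IFIT1, which binds viral RNA, gave -2.11 ± 0.64 (SE, adjusted p = 0.0602), and IFI27 -0.95 ± 0.30 (SE, adjusted p = 0.0635). IFIT1 stood at 11.997 and 12.07 on maternal arrays 2 and 5 and at 7.83, 8.83 and 9.67 on the 3 other maternal arrays. Without those 2 arrays, which are the highest for this list, 10 of 17 were negative and the median was -0.16, with 0 called. In that setting 0.140% of all 26353 tested probe sets were called.

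**Figure D5:**
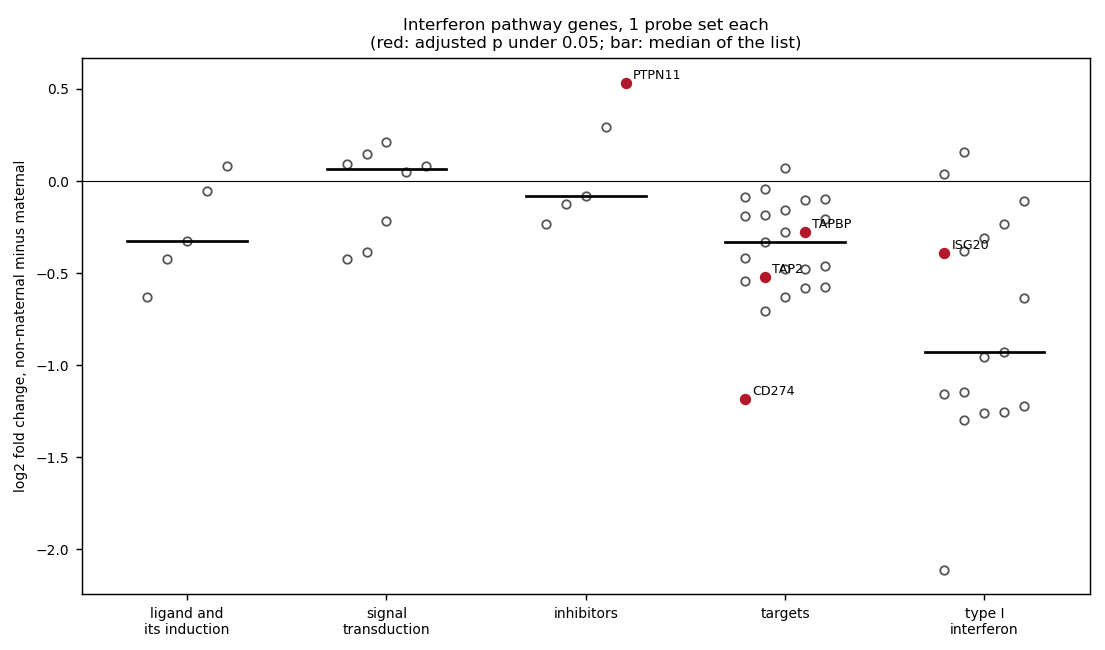
Log2 fold change, non-maternal minus maternal, of the 58 tested pathway genes by list, 1 probe set each. Red points have an adjusted p under 0.05 and bars are list medians, from -0.93 for type I interferon genes to 0.07 for signal transducers.

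In peer and in surrogate-peer animals against maternal animals limma called 0 of the 58 pathway genes, with 20 and 13 at an unadjusted p under 0.05. Among all tested probe sets 0.353% and 0% were called and 24.9% and 20.3% were at that p. Surrogate-peer against peer gave 0 called and 3 at an unadjusted p under 0.05, beside 0% and 1.83% among all. The median of the type I list was -1.06 in peer and -0.49 in surrogate-peer animals, and that of the targets -0.39 and -0.29, both against the same maternal arrays. Over all tested probe sets the medians of these comparisons were 0.004 and 0.01.

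The genes whose pattern over the 13 arrays was most like GBP1 at MmugDNA.41315.1.S1_at were IRF7 at 1 of its probe sets (Pearson's r = 0.973), ANKRD2 (0.965), GNPAT (0.963), USF1 (0.958) and TAP1 (0.955). With the group means removed r was 0.921 to 0.956, and without maternal arrays 2 and 5 it was 0.893 to 0.945. Those most like IRF1 were CREB5 (0.936), GLUL (0.934), KLF7 (0.926), CEBPB (0.917) and MPZL3 (0.916), and those most like GBP2 at MmuSTS.1968.1.S1_at were APBB1IP (0.903), IRF5 (0.899), KLHL42 (0.878), MTNR1A (0.869) and TAF6L (0.868). These r values are the highest of all tested named genes and are descriptions without a test. The 3 lists share no gene.

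Among the members themselves GBP1 at its highest probe set followed IRF1 with r of 0.833, MmugDNA.36433.1.S1_at of GBP2 with 0.772, CXCL10 with 0.730 and MmuSTS.1968.1.S1_at of GBP2 with 0.571. Without maternal arrays 2 and 5 the value for CXCL10 was 0.288 and that for IRF1 0.794. Over the 8 non-maternal arrays GBP1 and IRF1 gave 0.931 and GBP1 and CXCL10 0.888, where peer array 3 is the high point of each.

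In the RefSeq gene table of the assembly T2T-MMU8v2.0, GBP1 and GBP2 lie in a run of family members on chromosome 1, in the order GBP6, LOC695158, GBP7, GBP2, GBP1, GBP3, with genes between them that have no probe set here (the protein-coding LOC114671702 and pseudogenes) left out. GBP6 and GBP7 lay below the filter, at 3.86 to 4.56 and 3.84 to 4.67. The unnamed neighbour LOC695158 ran from 8.09 to 12.40, with a non-maternal difference of -1.06 that did not pass (limma, adjusted p = 0.205). KYAT3, the next protein-coding gene past GBP3, ran from 7.903 to 8.70 with a difference of 0.02.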

How the data were processed

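The authors deposited log2 expression values per probe set. The submitters' processing notes name RMA (robust multi-array average). Its version, and joint or separate normalization of the 13 arrays, were not stated, and the log2 scale was read from the deposited values. Each of the 13 samples has its own title, and each is taken here as 1 animal, which the labels do not state outright. P-values then measure only the spread between these samples, which may be technical in part. Arrays have no read depth, so their number limits the precision.

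Of 52865 probe sets 158 controls were left out. Those with a mean above the median of the means, 6.04, were tested (26352). Of 52707 probe sets 24956 had 1 symbol, 361 several and 27390 none. The Entrez identifiers of 24616 were found in the RefSeq table of T2T-MMU8v2.0, with 0 changed symbols. A limma 3.58.1 model in R 4.3.3 (lmFit, eBayes, all 13 arrays) tested the differences, two-sided, with Benjamini-Hochberg adjustment over all tested probe sets and a threshold of 0.05. The code was tested on simulated data. The members and the 14 lists (5 pathway, 9 marker) were chosen with earlier results of these data known. Named pathway genes were, per list, those called, or the 3 with the smallest p, and IFNG, JAK2 and SOCS1. Likeness was Pearson's r over arrays, with the 5 highest genes named. The non-maternal level weights both of its groups equally. Alternatives were no filter, a filter at 7, centring, quantile normalization, array weights, a variance trend with robust estimation, the title number as covariate, only the groups compared, and leaving out arrays. No sequence was used here.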

Additional observations from a re-analysis of the deposited data

Results flagged for a closer look

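A gap test for single arrays within a group of 4 or 5 was applied to the 11 member probe sets in 3 groups, 33 groups of values in all, of which chance alone marks about 1 in 20. It marked 2. Peer array 3 stood at 9.31 at the GBP1 probe set whose name ends in S1_x_at, against 7.32 to 7.61 in the 3 other peer animals, a gap of 0.855 of the whole range. Surrogate-peer array 1 stood at 7.51 at its companion ending in S1_at, with the 3 others at 7.73 to 7.76, a gap of 0.889 of a range that is itself small.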

How the results depend on the processing

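The only member call, GBP1 at MmugDNA.41315.1.S1_at, counted 1 in non-maternal against maternal animals. The count was 0 without the filter, with quantile normalization, with array weights, with a variance trend and robust estimation together and without maternal arrays 2 and 5, and 4 with the title number, whose meaning the labels do not give, as a covariate. That covariate also gave 1 in peer against maternal animals. Title numbers were 31 to 55 in maternal, 35 to 47 in peer and 9 to 32 in surrogate-peer animals. The surrogate-peer numbers barely overlap the others, so group and title number cannot be fully told apart. Leaving out single arrays gave 0 to 4 members for non-maternal, peer and surrogate-peer animals against maternal, and 0 to 2 for the F test. The value 4 came without maternal array 1 in each, and the non-maternal count was 0 without any of 11 other arrays. The pathway count of 5 was 3 without the filter, 3 with the trend and robust estimation together, 12 with the title number and 0 without maternal arrays 2 and 5. In peer against maternal animals its 0 became 4 with array weights and 5 with the title number. Leaving out single arrays gave 0 to 18, 0 to 14 and 0 to 6 pathway genes for non-maternal, peer and surrogate-peer animals against maternal.

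Among the members these signs turned. For surrogate-peer minus peer, GBP1 at MmugDNA.41315.1.S1_at was -8.08e-04 with quantile normalization and -0.97 with the title number, and IRF1 was 0.00698 with quantile normalization. With single arrays left out these ran from -0.14 to 0.32 for that GBP1 probe set and from -0.21 to 0.32 for IRF1. At the 3 other tested GBP1 probe sets they ran from -0.27 to 0.39, from -0.35 to 0.31 and from -0.42 to 0.24. The lower ends came without peer array 4 and the upper ends without peer array 3. For surrogate-peer minus maternal, GBP2 at MmuSTS.1968.1.S1_at was 0.00792 without maternal arrays 2 and 5 and ran from -0.16 to 0.11 with single arrays left out. The cause of these changes was not tested. Centring the arrays and testing only the groups compared changed no member call. No paired analysis was possible because the labels give no replicate number shared between groups.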
